A study of Mus musculus with 12 samples.

Results

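The 36 genes described here encode 26 integrin subunits and 10 laminin chains, taken by gene symbol from the 21956 genes counted in mouse brain tissue beside an intracerebral hemorrhage (ICH). They were grouped by role into 8 leukocyte integrins (Itgal, Itgam, Itgax, Itgad, Itgae, Itga4, Itgb2 and Itgb7), 2 platelet integrins (Itga2b and Itgb3), 16 vascular and glial integrins and 10 laminins. The question was how the leukocyte integrins, the vascular and glial integrins and the laminins differed between ICH and sham, and whether deletion of Fabp4 in microglia changed these differences.

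Integrins are membrane receptors built of an alpha and a beta subunit, which bind matrix proteins or ligands on other cells and pass force and signals across the membrane. Itgb2 is the shared partner of Itgal, Itgam, Itgax and Itgad, through which leukocytes hold on to endothelial ICAMs and to complement-coated targets, whereas Itgb1 pairs with most of the alpha subunits that bind collagen, laminin or fibronectin. Laminins are assembled from an alpha, a beta and a gamma chain and, with type IV collagen, nidogen and perlecan, form the basement membrane that surrounds brain vessels; Lama4 and Lama5 are the alpha chains of endothelial laminins and Lama2 is an alpha chain of astrocyte end-feet and mural cells.

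Poly(A) RNA of 12 mice was sequenced, 3 mice in each of 4 groups: Sham-Fabp4fl_fl, ICH-Fabp4fl_fl, Sham-Fabp4CKO and ICH-Fabp4CKO. ICH was induced with collagenase in the right striatum and tissue within 1 to 2 mm of the hematoma was taken 48 h later; sham mice had the operation without collagenase and gave the matching tissue. All mice carried floxed Fabp4 alleles, which encode a fatty acid-binding protein, and Fabp4CKO mice also carried a tamoxifen-inducible Cre recombinase driven by Tmem119, a microglial gene, and had 7 daily doses of tamoxifen ending 14 days before surgery. Whether the Fabp4fl_fl mice received tamoxifen, and the age of these mice, are not given in the sources used here, and no cell type other than microglia was meant to lose Fabp4. The tissue was not sorted, so more cells of a type and more RNA per cell cannot be told apart in any result.

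Fabp4, the targeted gene, was at 3.24, 3.93 and 1.28 CPM, counts scaled to a common library total, in the ICH-Fabp4fl_fl mice and at 0.32, 0.16 and 0.55 CPM in the ICH-Fabp4CKO mice, without overlap. Between these groups, 11.5% of all genes were lower in ICH-Fabp4CKO without overlap. By edgeR's quasi-likelihood test, 0 of 14600 genes had an adjusted p under 0.05, so Fabp4 itself was not called. The sham mice had at most 2 Fabp4 reads each, so the deletion could not be checked in them. Libraries held 15650813 to 22406216 counts, of which the 36 genes took 0.0595 to 0.0695% in sham and 0.145 to 0.392% after ICH. ICH-Fabp4fl_fl mouse 1 stood apart in mitochondrial reads, at 16.3% of its counts against 7.90 to 11.9% in the others, and ICH-Fabp4CKO mouse 1 stood apart in reads of 4 Y-linked genes, with 1 against 1302 to 2251. Choroid plexus markers summed to 852 to 3185 CPM in Sham-Fabp4fl_fl, and to 14.8 to 49.1 CPM in the other groups.

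In Fabp4fl_fl mice, 20 of the 34 members that could be tested were higher after ICH and 0 were lower (edgeR quasi-likelihood test, Benjamini-Hochberg adjusted p under 0.05; 1, Itga3, was lower at an unadjusted p under 0.05 and was called lower by DESeq2). Of all 14719 genes tested, 26.2% were called higher and 19.3% lower. Every ICH mouse was above every sham mouse in 21 members and below in 0, against 34.4% and 27.4% of all genes. The 20 were the 7 tested leukocyte integrins, the platelet subunit Itgb3, 8 of 15 vascular and glial integrins and 4 of 10 laminins. Members near the floor in sham passed the filter on low counts through the ICH mice alone, so they were tested only because they were higher there. Itgae, with 6 to 8 reads in Sham-Fabp4fl_fl, Itga2, with 5 to 7, and Itgb7, with 8 to 10, were such members. In Fabp4CKO mice Itgax, with 4 to 10 reads in sham, was among them. Between the sham groups, 5 of the 8 leukocyte integrins could be tested. The median log2 fold change was 3.26 among the leukocyte integrins, 1.10 among the vascular and glial integrins and 0.73 among the laminins, against 0.02 over all genes. In Fabp4CKO mice, 24 of 34 were higher and 1, Itga3, was lower, against 24.5% and 11.1% of 14737 genes, and the medians were 4.10, 1.49 and 0.68 in the same order, against 0.01 over all genes. There the mice did not overlap for 26 members above and 1 below, against 33.2% and 28.9% of all genes. The 2 comparisons use separate mice. Itgad and Itgb6 had too few reads to be tested in any comparison, at no more than 0.63 CPM in any mouse.

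**Figure D1:**
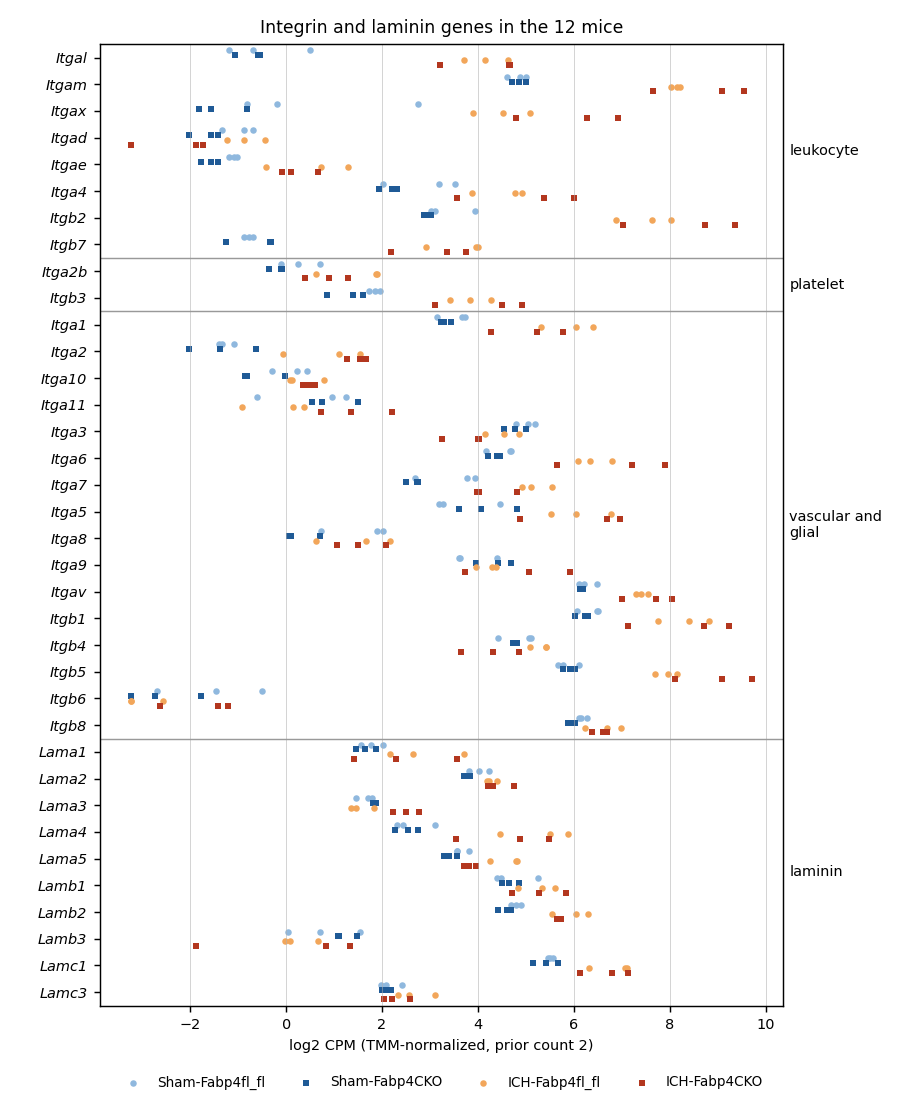
Log2 CPM of each of the 36 members in each of the 12 mice, in rows grouped by class, with circles for Fabp4fl_fl, squares for Fabp4CKO and separate colours for sham and ICH. Itgam, Itgax, Itgal, Itgb2 and Itgb7 show wide gaps between sham and ICH mice, and Itgad and Itgb6 lie at the bottom of the scale in every mouse.

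The alpha subunit Itgam, known as CD11b on microglia, monocytes and neutrophils, was at 31.8, 29.4 and 24.2 CPM in the Sham-Fabp4fl_fl mice and at 297, 286 and 259 CPM in the ICH-Fabp4fl_fl mice. The ICH mice were close to each other and far above every sham mouse, with a log2 fold change of 3.26 ± 0.17 (SE, adjusted p = 0.000262). In Fabp4CKO mice Itgam went from 28.8, 32.1 and 26.2 CPM to 543, 199.7 and 743 CPM, again without overlap but with a much wider spread, at 4.10 ± 0.51 (adjusted p = 0.00599). Another gene model on the same strand shares 68.7% of Itgam's exon bases and held at most 3.01% as many counts as Itgam in any library. How reads common to both were counted is not given in the sources used here.

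Itgb2, the common beta chain of the leukocyte receptors, was at 15.2, 8.54 and 8.05 CPM in Sham-Fabp4fl_fl and at 262, 198 and 117 CPM in ICH-Fabp4fl_fl, a log2 fold change of 4.13 ± 0.38 (adjusted p = 0.000421). Its ICH levels in Fabp4CKO mice were 426, 129 and 655 CPM, above the sham range of 7.21 to 8.06 CPM in each mouse (5.71 ± 0.65, adjusted p = 0.00552). Itgal, the alpha subunit of LFA-1, which binds Icam1, rose by 4.61 ± 0.49 (adjusted p = 0.000634) and 5.28 ± 0.51 (adjusted p = 0.00478) in the 2 genotypes, from at most 1.3 CPM in sham to 9.16 to 25.3 CPM after ICH.

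Itgb7, which pairs with Itga4 and Itgae on lymphocytes and some myeloid cells, was at 0.48, 0.44 and 0.52 CPM in Sham-Fabp4fl_fl and at 15.5, 15.8 and 7.39 CPM in ICH-Fabp4fl_fl. It had the largest log2 fold change of the 36 members in that genotype, 4.68 ± 0.38 (adjusted p = 0.00035). With 8 to 10 reads in these sham mice, it passed the filter on low counts through the ICH mice alone. Itga4, the alpha subunit of VLA-4 and the target of natalizumab, changed least among the 7 tested leukocyte integrins, by 1.51 ± 0.41 (adjusted p = 0.0218), with 9.06, 11.4 and 3.92 CPM in sham against 27.1, 30.0 and 14.7 CPM after ICH. Itgae, which marks resident T cells and some dendritic cells, was called at 1.98 ± 0.55 (adjusted p = 0.0225) from under 0.40 CPM in sham. The Itga4 call did not hold without Sham-Fabp4fl_fl mouse 1 (adjusted p = 0.0546), ICH-Fabp4fl_fl mouse 1 (0.0567) or ICH-Fabp4fl_fl mouse 2 (0.0867), and the Itgae call was lost without any 1 of the sham mice (0.0649 to 0.0813) or without ICH mouse 1 (0.0755) or 2 (0.0724).

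Itgax, known as CD11c on dendritic cells and on activated microglia, was at 0.46, 0.18 and 0.23 CPM in Sham-Fabp4CKO and at 77.4, 27.5 and 121 CPM in ICH-Fabp4CKO, a log2 fold change of 8.0 ± 0.76 (adjusted p = 0.00478). Its 4 to 10 reads in Sham-Fabp4CKO were near the floor, and it passed the filter in that genotype through the ICH mice alone. In Fabp4fl_fl mice it was at 6.65, 0.77 and 0.46 CPM in sham and at 23.0, 33.7 and 14.8 CPM after ICH, at 3.12 ± 0.87 (adjusted p = 0.0239). Sham-Fabp4fl_fl mouse 1, the high one, decided this value, which was 5.17 without it, and the call was lost without Sham-Fabp4fl_fl mouse 2 (adjusted p = 0.0741), mouse 3 (0.0506) or ICH-Fabp4fl_fl mouse 2 (0.0843).

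The promoters of the leukocyte subunits that had an entry in the reference table are printed, with that of Itgb5, a vascular and glial subunit that also rose after ICH. They are RefSeq sequences of GRCm38.p6, 250 bases before and 50 after a transcript start, read 5′ to 3′ on the gene's strand, for Itgam at chr7:128062390-128062689 (+), Itgax at chr7:128129300-128129599 (+), Itgb7 at chr15:102231886-102232185 (-), Itga4 at chr2:79255176-79255475 (+) and Itgb5 at chr16:33829415-33829714 (+). Capitals mark GAGGAAG or its reverse complement CTTCCTC, a core of sites of the myeloid factor PU.1, and the GC box GGGCGG or CCGCCC.
Itgam promoter: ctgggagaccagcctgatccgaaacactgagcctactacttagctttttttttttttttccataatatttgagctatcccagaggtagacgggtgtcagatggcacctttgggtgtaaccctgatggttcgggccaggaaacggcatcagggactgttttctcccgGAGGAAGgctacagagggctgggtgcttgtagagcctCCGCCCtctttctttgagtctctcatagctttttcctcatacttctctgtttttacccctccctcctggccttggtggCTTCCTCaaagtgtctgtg
Itgax promoter: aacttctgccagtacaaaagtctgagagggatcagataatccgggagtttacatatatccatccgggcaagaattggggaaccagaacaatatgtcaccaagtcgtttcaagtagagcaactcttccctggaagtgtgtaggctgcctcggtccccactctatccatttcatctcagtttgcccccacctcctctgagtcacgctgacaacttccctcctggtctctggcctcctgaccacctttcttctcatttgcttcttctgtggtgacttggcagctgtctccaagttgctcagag
Itgb7 promoter: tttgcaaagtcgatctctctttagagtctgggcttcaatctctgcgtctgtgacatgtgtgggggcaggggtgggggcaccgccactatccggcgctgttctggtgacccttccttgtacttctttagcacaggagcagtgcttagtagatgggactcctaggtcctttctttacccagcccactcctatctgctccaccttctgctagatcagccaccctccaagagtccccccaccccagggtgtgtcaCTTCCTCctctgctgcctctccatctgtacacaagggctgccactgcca
Itga4 promoter: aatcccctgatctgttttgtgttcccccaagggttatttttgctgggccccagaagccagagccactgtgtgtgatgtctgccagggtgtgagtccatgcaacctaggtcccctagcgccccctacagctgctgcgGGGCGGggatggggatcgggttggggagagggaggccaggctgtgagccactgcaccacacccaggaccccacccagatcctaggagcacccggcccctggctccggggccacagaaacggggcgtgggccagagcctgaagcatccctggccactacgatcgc
Itgb5 promoter: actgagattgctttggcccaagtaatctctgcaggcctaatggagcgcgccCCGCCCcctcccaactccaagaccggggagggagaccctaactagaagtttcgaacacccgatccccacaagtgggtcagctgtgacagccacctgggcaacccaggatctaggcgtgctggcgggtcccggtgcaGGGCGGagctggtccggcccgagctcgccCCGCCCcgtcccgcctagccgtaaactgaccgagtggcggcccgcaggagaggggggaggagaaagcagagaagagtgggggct
The Itgam promoter held 2 copies of GAGGAAG and Itgb7 held 1, while the Itgb5 promoter held 3 GC boxes and no GAGGAAG. Over all 32851 promoters of the table, GAGGAAG was in 13.6% and the GC box in 35.7% on either strand, and over the 21262 of protein-coding genes, as the members are, in 13.6% and 46.2%. Of the members' 26 entries, for 23 genes, GAGGAAG was in 2 of 4 leukocyte entries and 3 of 15 vascular and glial entries, and the GC box in 2 of 4 and 7 of 15. Of the 6 laminin entries, 2 held GAGGAAG and 3 the GC box, and the single platelet entry, of Itga2b, held GAGGAAG. The letters TATAAA were in 13.6% of all promoters and in 0 of the members' entries. A match describes these letters and was not a measurement of binding.

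Markers of several blood and brain cell types were also higher after ICH, while the summed T and NK cell markers overlapped between sham and ICH mice. All 7 monocyte and macrophage markers were called higher in both genotypes, and their summed level ran from 0.940 to 5.11 CPM in sham, 146 to 782 CPM in ICH-Fabp4fl_fl and 121 to 757 CPM in ICH-Fabp4CKO. The 7 microglial markers, of which 6 were called higher in each genotype, summed to 289 to 360 CPM in sham, 1210 to 1457 CPM in ICH-Fabp4fl_fl and 2488, 1230 and 3826 CPM in ICH-Fabp4CKO. The 8 neutrophil markers summed to 0.460 to 3.31 CPM in sham, 16.6 to 47.0 CPM in ICH-Fabp4fl_fl and 16.6 to 260.5 CPM in ICH-Fabp4CKO, with Ly6g at 0 reads in every ICH-Fabp4fl_fl mouse. The 8 T and NK cell markers summed to 17.9 to 58.5 CPM in sham and 18.7 to 62.3 CPM after ICH, with Cd3d at 0 reads in every sham mouse and at 3 to 16 reads after ICH. Of these, 4 of 6 tested were called higher in Fabp4fl_fl mice (Cd3e, Cd3g, Cd8a and Klrb1c, median of the 6 log2 fold changes 3.26) and 2 of 4 in Fabp4CKO mice (Cd3e and Cd8a), while Cd4 was not called in either (-0.12 and -0.66). The part of each cell type in the integrin levels was not tested.

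The platelet beta subunit Itgb3, which with Itga2b forms the fibrinogen receptor and with Itgav a receptor of endothelium and macrophages, was at 3.18, 3.50 and 3.77 CPM in Sham-Fabp4fl_fl and at 19.2, 14.2 and 10.6 CPM in ICH-Fabp4fl_fl. Every ICH mouse was above every sham mouse, at a log2 fold change of 2.02 ± 0.25 (adjusted p = 0.00105) and, in Fabp4CKO mice, 3.10 ± 0.51 (adjusted p = 0.00998). Itga2b itself was lower in level, at 0.82, 1.53 and 1.08 CPM in Sham-Fabp4fl_fl and 3.59, 3.55 and 1.43 CPM in ICH-Fabp4fl_fl, where the groups overlapped and the adjusted p was 0.0538 (1.26 ± 0.45), or 0.0119 without ICH-Fabp4fl_fl mouse 3. In Fabp4CKO mice it was at 0.83, 0.67 and 0.83 CPM against 1.75, 2.34 and 1.20 CPM, without overlap, and was called at 1.18 ± 0.34 (adjusted p = 0.0414). The 6 platelet markers summed to 1.02 to 2.30 CPM in sham and to 5.01 to 57.1 CPM after ICH, most of it Pf4. Of these, 1 of 2 tested was called higher in Fabp4fl_fl mice and 2 of 3 in Fabp4CKO mice. The part of these markers in the Itga2b and Itgb3 levels was not tested.

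Among the vascular and glial integrins of Fabp4fl_fl mice, 2 of the 4 collagen receptor subunits rose after ICH. Itga1, found on mural cells, endothelium and some T cells, was at 12.5, 13.1 and 8.73 CPM in sham and at 84.0, 66.2 and 39.8 CPM after ICH (2.42 ± 0.29, adjusted p = 0.000924). Itga2, also a platelet collagen receptor, was at 0.29, 0.27 and 0.36 CPM and at 2.04, 2.81 and 0.85 CPM (2.54 ± 0.54, adjusted p = 0.00893), a change read from few counts. The other collagen receptor subunits, Itga10 and Itga11, stayed under 5 CPM in every mouse, with log2 fold changes of 0.20 and -0.89 that did not pass the test.

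Of the laminin-binding subunits, Itga6 and Itga7 rose after ICH, and Itga3 fell in Fabp4CKO mice. Itga6, which pairs with Itgb1 or Itgb4 on endothelium, was at 25.6, 25.4 and 17.8 CPM in Sham-Fabp4fl_fl and at 80.5, 111 and 67.6 CPM in ICH-Fabp4fl_fl (1.87 ± 0.23, adjusted p = 0.00104). Itga7, the alpha subunit of astrocytes and smooth muscle, was at 15.2, 13.5 and 6.30 CPM and at 46.4, 34.2 and 30.2 CPM (1.62 ± 0.33, adjusted p = 0.00734), without overlap. Itga3, which binds Lama5-containing laminins, was the 1 member called lower in either genotype: in Fabp4CKO mice it was at 27.3, 23.3 and 31.7 CPM in sham and at 16.1, 16 and 9.35 CPM after ICH (-0.99 ± 0.25, adjusted p = 0.0295). In Fabp4fl_fl mice Itga3 was at 36.4, 32.6 and 27.5 CPM against 28.6, 23.1 and 17.6 CPM, with overlap between the highest ICH mouse and the lowest sham mouse, and did not pass the test (-0.52 ± 0.19, adjusted p = 0.0611). That adjusted p ran from 0.0186 to 0.142 under the other settings and was under the threshold in 6 of 12, without Sham-Fabp4fl_fl mouse 3 (0.0475) and without ICH-Fabp4fl_fl mouse 1 (0.0314) among them. Itgb4, the hemidesmosome-type partner of Itga6, was not called in either genotype (0.37 and -0.41), but was called lower in Fabp4CKO mice without ICH-Fabp4CKO mouse 2 (-0.75, adjusted p = 0.0106). The 5 astrocyte markers summed to 2127 to 2434 CPM in sham and 4772 to 6708 CPM after ICH, and the 5 neuron markers to 2917 to 3909 CPM and 887 to 2631 CPM. Of the astrocyte markers, 3 of 5 were called higher in each genotype, with log2 fold changes of -0.69 to 4.04 in Fabp4fl_fl mice. Of the neuron markers, 4 of 5 were called lower in Fabp4fl_fl mice and 1 of 5 in Fabp4CKO mice. The part of both sets in the Itga7 and Itga3 values was not tested.

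The alpha subunits of receptors of fibronectin, vitronectin and latent TGF-beta included Itgav and Itga5, which rose in Fabp4fl_fl mice. Itgav was at 69.0, 74.1 and 89.1 CPM in Sham-Fabp4fl_fl and at 169.7, 186 and 156 CPM in ICH-Fabp4fl_fl (1.10 ± 0.16, adjusted p = 0.00189). Itga5, the fibronectin receptor subunit, was at 9.54, 8.98 and 21.8 CPM and at 109, 65.8 and 46.2 CPM (2.40 ± 0.44, adjusted p = 0.00487). The sham and ICH mice did not overlap for either. Itga9 had values of 0.26 ± 0.26 and 0.79 ± 0.53 in the 2 genotypes and was not called, although in Fabp4CKO mice it was called without ICH-Fabp4CKO mouse 2 (1.19, adjusted p = 0.00763) and was at 0.14 without ICH-Fabp4CKO mouse 3.

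Itgb5, the partner of Itgav found on microglia and other myeloid and vascular cells, was at 68.6, 51.0 and 54.2 CPM in Sham-Fabp4fl_fl and at 285, 250.2 and 207 CPM in ICH-Fabp4fl_fl (2.05 ± 0.18, adjusted p = 0.000408), and it changed by 3.21 ± 0.42 (adjusted p = 0.00634) in Fabp4CKO mice. Itgb1, the most widely shared beta subunit, was at 90.9, 89.7 and 66.7 CPM and at 453, 338 and 217 CPM (1.98 ± 0.28, adjusted p = 0.0017). Itgb8, which with Itgav activates TGF-beta, was at 70.5, 76.9 and 68.8 CPM in Sham-Fabp4fl_fl and at 74.6, 125 and 103 CPM in ICH-Fabp4fl_fl. These groups overlapped (0.45 ± 0.21, adjusted p = 0.108), although Itgb8 was called without ICH-Fabp4fl_fl mouse 1 (adjusted p = 0.0176). In Fabp4CKO mice Itgb8 was at 63.1, 58.9 and 65.3 CPM against 97.0, 103 and 83.6 CPM and was called at 0.60 ± 0.12 (adjusted p = 0.0177).

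**Figure D2:**
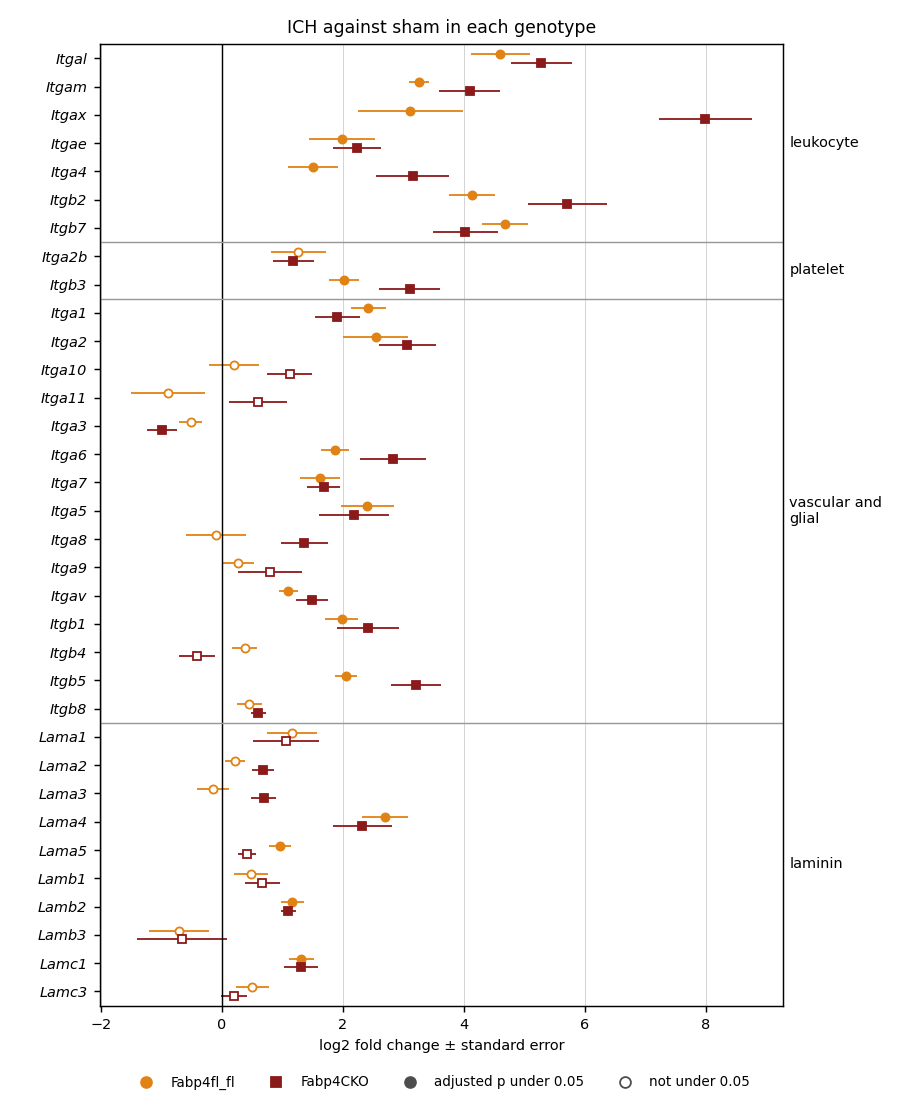
Log2 fold change of ICH against sham for each tested member, with standard error bars, in Fabp4fl_fl and in Fabp4CKO mice, with filled symbols where the adjusted p was under 0.05. All 7 tested leukocyte integrins are filled in both genotypes, and Itga3 is the only filled symbol below 0.

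Per kilobase of exon, the scale on which genes can be set against each other, the order of beta subunits shifted toward Itgb2. In Sham-Fabp4fl_fl the level was 20.2 CPM per kb for Itgb1, 16.3 for Itgb5, 6.52 for Itgb8, 4.24 for Itgb4 and 3.47 for Itgb2. In ICH-Fabp4fl_fl it was 82.3 ± 28.9 CPM per kb for Itgb1, 69.6 ± 11.1 for Itgb5 and 63.0 ± 23.8 for Itgb2 (SD, n = 3). These SDs are between mice, whereas the chains were measured in the same mice, so they do not compare chains within a mouse. Itgb2 was at 85.7 CPM per kb in mouse 1 and 38.3 in mouse 3, where Itgb1 was at 110.9 and 53.1. Among the alpha subunits, Itgav at 7.20 ± 0.97, Itgam at 5.66 ± 0.77 and Itga3 at 5.63 ± 0.78 CPM per kb led in sham, the latter pair with nearly the same mean. After ICH Itgam led at 55.9 ± 3.9 CPM per kb, before Itgav at 15.9 and Itga5 at 14.9. The exon lengths came from an annotation that may not be the one used for counting.

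Summed per kilobase in each mouse, the 8 leukocyte integrins were at 13.8, 9.99 and 8.29 CPM per kb in Sham-Fabp4fl_fl and at 161, 141 and 98.9 in ICH-Fabp4fl_fl, and the 16 vascular and glial integrins at 75.5, 70.3 and 65.3 and at 270, 229 and 169. The ratio of the first sum to the second was 0.183, 0.142 and 0.127 in these sham mice and 0.595, 0.616 and 0.585 in these ICH mice. In Sham-Fabp4CKO it was 0.135, 0.144 and 0.130, and in ICH-Fabp4CKO 0.813, 0.585 and 0.827. The ratio was thus higher in every ICH mouse than in every sham mouse, and the ICH-Fabp4fl_fl mice lay close together, while ICH-Fabp4CKO mouse 2 lay at their level and the other ICH-Fabp4CKO mice above it. Few genes set it. In ICH-Fabp4fl_fl, Itgam (55.9) and Itgb2 (63.0) made up most of the leukocyte sum, and Itgb1 (82.3) and Itgb5 (69.6) most of the other. Itgam and Itgb5 are both found on microglia, so the ratio does not separate cell types.

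**Figure D3:**
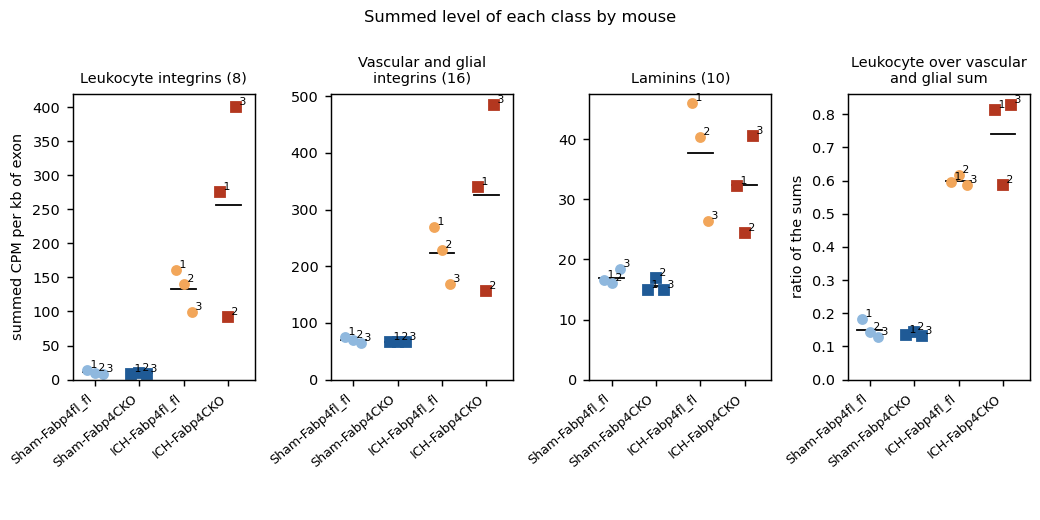
Summed CPM per kilobase of exon of the leukocyte integrins, of the vascular and glial integrins and of the laminins, and the ratio of the first to the second, with a point for each mouse and a line at the mean of each group of 3. The ratio is between 0.127 and 0.183 in the 6 sham mice and between 0.585 and 0.827 in the 6 ICH mice.

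Of the laminins, Lama4, Lama5, Lamb2 and Lamc1 rose in Fabp4fl_fl mice. Lama4, the endothelial and mural alpha chain, was at 8.48, 4.87 and 5.27 CPM in sham and at 58.8, 44.9 and 22 CPM after ICH (2.70 ± 0.38, adjusted p = 0.00178), and in Fabp4CKO mice at 6.66, 4.70 and 5.75 CPM against 29.2, 11.5 and 44.5 CPM (2.32 ± 0.49, adjusted p = 0.0185). Lama5, the alpha chain of mature endothelial basement membrane, was at 11.8, 13.9 and 11.8 CPM in Sham-Fabp4fl_fl and at 27.8, 28.2 and 18.9 CPM in ICH-Fabp4fl_fl (0.96 ± 0.19, adjusted p = 0.0064). It was the 1 member called in Fabp4fl_fl mice and not in Fabp4CKO mice, where it was at 10.4, 11.6 and 9.74 CPM against 14, 15.3 and 13 CPM, also without overlap (0.41 ± 0.15, adjusted p = 0.0658), although DESeq2 called it there (adjusted p = 0.0232).

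The beta chain Lamb2 was at 27.5, 25.5 and 29.7 CPM in Sham-Fabp4fl_fl and at 78.2, 66.1 and 46.5 CPM in ICH-Fabp4fl_fl (1.16 ± 0.19, adjusted p = 0.00324). The gamma chain Lamc1, part of most vascular laminins, was at 44.0, 45.5 and 47.1 CPM and at 138, 134 and 79.1 CPM (1.31 ± 0.21, adjusted p = 0.00291). Both were also called in Fabp4CKO mice, at 1.10 ± 0.12 (adjusted p = 0.00549) and 1.31 ± 0.28 (adjusted p = 0.0195). Lamb1, the beta chain that many Lama4 and Lama5 trimers hold, was not called in either genotype, at 0.48 and 0.66, but was called in Fabp4fl_fl mice without Sham-Fabp4fl_fl mouse 3 (adjusted p = 0.0432) and in Fabp4CKO mice without ICH-Fabp4CKO mouse 2 (0.90, adjusted p = 0.00341).

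Lama2 and Lama3 were called in Fabp4CKO mice alone. Lama2 was at 18.6, 16 and 13.9 CPM in Sham-Fabp4fl_fl and at 18.2, 21.1 and 18.6 CPM in ICH-Fabp4fl_fl, with overlap (0.21 ± 0.16, adjusted p = 0.309), and at 13, 13.4 and 14.2 CPM against 18.5, 19.7 and 26.7 CPM in Fabp4CKO mice (0.68 ± 0.18, adjusted p = 0.0322). Lama3, a chain of epithelial laminins, was at 2.65, 3.18 and 3.36 CPM against 3.45, 2.43 and 2.66 CPM in Fabp4fl_fl mice (-0.15 ± 0.27, adjusted p = 0.673) and at 3.51, 3.40 and 3.54 CPM against 5.56, 4.58 and 6.67 CPM in Fabp4CKO mice (0.69 ± 0.21, adjusted p = 0.0461). A call in 1 genotype does not show that the genotypes differ, which the interaction test addresses.

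Within the same mouse, the difference of log2 CPM between Lama4 and Lama2 lay between -1.70 and -0.96 in the 6 sham mice, at 1.68, 1.09 and 0.24 in ICH-Fabp4fl_fl and at 0.66, -0.77 and 0.74 in ICH-Fabp4CKO. Per kilobase, Lama4 was at 0.51 CPM in Sham-Fabp4fl_fl, the seventh of the 10 laminins, and at 3.47 CPM in ICH-Fabp4fl_fl, behind Lamc1 at 14.1, Lamb2 at 10.5 and Lamb1 at 3.92 CPM. All 6 endothelial markers were between 234 and 290.2 CPM in sum in sham and at 552 to 1152 CPM in ICH-Fabp4fl_fl, and the 6 pericyte and smooth muscle markers went from 141 to 198 CPM to 454 to 947 CPM. In ICH-Fabp4CKO these sums were 310.0 to 372 CPM and 249 to 489 CPM. Of the endothelial markers, 6 of 6 were called higher in Fabp4fl_fl mice and 2 of 6 in Fabp4CKO mice. For the pericyte and smooth muscle markers it was 6 of 6 and 5 of 6. The part of both marker sets in the laminin levels was not tested.

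The comparison of the genotypes after ICH used the same ICH libraries as the comparisons with sham. In it, 0 of the 34 tested members were called, as were 0 of 14600 genes (0%) by edgeR's quasi-likelihood test. At an unadjusted p under 0.05 there were 8 members, 4 higher and 4 lower in ICH-Fabp4CKO, beside 6.36% and 5.82% of all genes, and DESeq2 called 2. The median log2 fold change was 0.77 for leukocyte integrins, 0.27 for vascular and glial integrins and -0.15 for laminins, against 0.06 over all genes. The groups of mice did not overlap for 2 members higher and 4 lower in ICH-Fabp4CKO, where 8.3% and 11.5% of all genes did so.

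In each ICH group, 1 mouse was lowest in most members. ICH-Fabp4CKO mouse 2 had the lowest value of its group in 27 of the 36 members, 7 of 8 leukocyte integrins among them, and ICH-Fabp4fl_fl mouse 3 in 29, all 8 leukocyte integrins among them. The levels of the leukocyte integrins Itgam, Itgb2 and Itgax spanned a wider range in ICH-Fabp4CKO. Itgam, at 543, 199.7 and 743 CPM against 297, 286 and 259 CPM in ICH-Fabp4fl_fl, was thus above the other genotype in 2 mice and below it in 1 (0.87 ± 0.45, adjusted p = 0.48). Itgb2 had the same pattern in part, with mouse 2 at 129 CPM inside the ICH-Fabp4fl_fl range of 117 to 262 CPM (1.14 ± 0.59, adjusted p = 0.48). Microglial markers had the same order of mice, at 2488, 1230 and 3826 CPM in sum, and neutrophil markers too, at 117, 16.6 and 260.5 CPM. The order was not particular to them. Fibroblast markers had it, at 1140, 75.2 and 2319 CPM, as did monocyte and macrophage, platelet, and pericyte and smooth muscle markers. Neuron markers had the reverse order, at 1209, 2631 and 887 CPM, as did astrocyte, oligodendrocyte, T and NK cell and choroid plexus markers. Of the 7 microglial markers, 5 were higher and 2 lower in ICH-Fabp4CKO than in ICH-Fabp4fl_fl (log2 fold changes of -0.82 to 1.40, median 0.23). The part of these marker sets in the Itgam and Itgb2 values was not tested.

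The 6 members with the smallest p after ICH were Lama5, Lama3, Itga11, Itgax, Itgb5 and Itgb4. Lama5 was lower in every ICH-Fabp4CKO mouse than in every ICH-Fabp4fl_fl mouse, at 14, 15.3 and 13 CPM against 27.8, 28.2 and 18.9 CPM (-0.76 ± 0.20, adjusted p = 0.313). Lama3 was higher in every ICH-Fabp4CKO mouse, at 5.56, 4.58 and 6.67 CPM against 3.45, 2.43 and 2.66 CPM (1.03 ± 0.27, adjusted p = 0.313). DESeq2 called both, each at an adjusted p of 0.0275, as did the fit on all 12 libraries, at 0.0417 for Lama5 and 0.0477 for Lama3, but these settings also called 578 and 362 of all genes. The 6 endothelial markers, all lower in ICH-Fabp4CKO at an unadjusted p under 0.05, summed to 310.0 to 372 CPM there and to 552 to 1152 CPM in ICH-Fabp4fl_fl, and their part in the Lama5 value was not tested.

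Itgax was at 77.4, 27.5 and 121 CPM in ICH-Fabp4CKO and at 23.0, 33.7 and 14.8 CPM in ICH-Fabp4fl_fl, so mouse 2 fell inside the range of the other genotype (1.73 ± 0.56, adjusted p = 0.35). Itgb5, at 544, 274 and 834 CPM against 285, 250.2 and 207 CPM, also overlapped through mouse 2 (1.21 ± 0.41, adjusted p = 0.35). Itga11 was low in level, at 2.46, 1.55 and 4.48 CPM against 1.20, 1.00 and 0.43 CPM, without overlap (1.77 ± 0.56, adjusted p = 0.347). Itgb4 was lower in all 3 ICH-Fabp4CKO mice, at 19.8, 28.8 and 12.4 CPM against 42.8, 42.6 and 33.6 CPM (-0.91 ± 0.31, adjusted p = 0.352). The 5 oligodendrocyte markers, all lower in ICH-Fabp4CKO at an unadjusted p under 0.05, summed to 6807 to 10874 CPM there and 17526 to 27659 CPM in ICH-Fabp4fl_fl, and their part in the Itgb4 value was not tested. Of the laminin receptors, Itga3 and Itga7 were below without overlap too, at adjusted p of 0.4 and 0.355. None of these passed the test across genes.

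**Figure D4:**
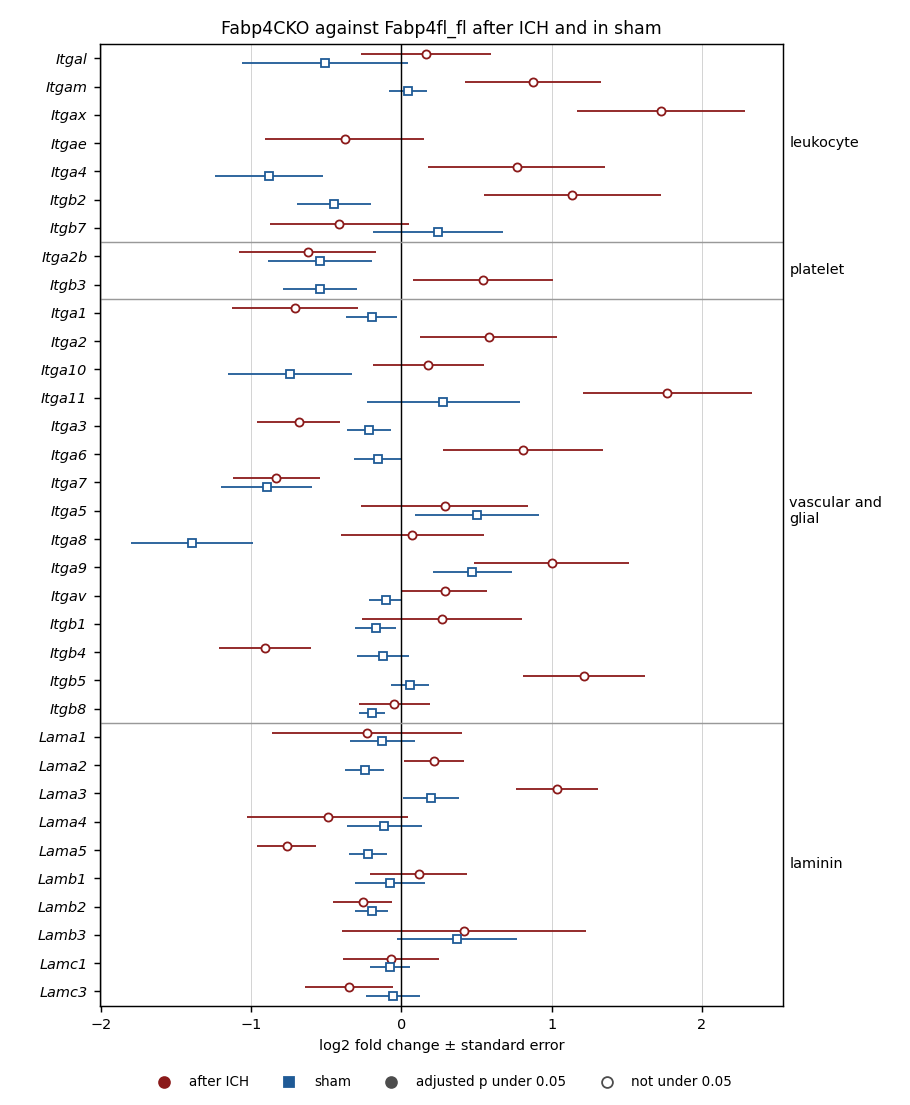
Log2 fold change of Fabp4CKO against Fabp4fl_fl for each tested member, with standard error bars, after ICH and in sham. All symbols are open since 0 members had an adjusted p under 0.05, and Lama5 lies at -0.76 and Lama3 at 1.03 after ICH.

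Between the sham groups, 31 members could be tested and 0 were called, where 0.111% of 14395 genes were, all of them lower in Sham-Fabp4CKO. DESeq2 called 0 members as well, and 3 had an unadjusted p under 0.05, all lower in Sham-Fabp4CKO, where 4.15% of all genes were higher and 6.07% lower at that level. The mice did not overlap for 1 member above and 4 below, beside 5.98% and 8.86% of all genes. Itga8, an RGD-binding subunit of mesenchymal cells and pericytes, was at 1.53, 0.94 and 0.97 CPM against 3.95, 3.61 and 1.55 CPM, just without overlap (-1.39 ± 0.40, adjusted p = 0.427). Itga7 was at 6.52, 5.55 and 6.57 CPM against 15.2, 13.5 and 6.30 CPM, with Sham-Fabp4fl_fl mouse 3 inside the other group's range (-0.90 ± 0.30, adjusted p = 0.477). Without Sham-Fabp4fl_fl mouse 3, 7 of 32 members were called, where 2862 of 14602 genes were: Itga5 and Itga9 were higher and Itgax, Itga4, Itga7, Itga8 and Itgb4 lower in Sham-Fabp4CKO. Choroid plexus markers differed between these groups as given above, and fibroblast markers summed to 29.3 to 52.2 CPM in Sham-Fabp4fl_fl and 20.0 to 20.9 CPM in Sham-Fabp4CKO, with all 5 lower at an unadjusted p under 0.05, and their part in the Itga7 and Itga8 values was not tested.

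Itga8 was also called after ICH in Fabp4CKO mice alone, at 2.71, 1.97 and 4.15 CPM against 1.53, 0.94 and 0.97 CPM in sham, without overlap (1.36 ± 0.38, adjusted p = 0.0382). In Fabp4fl_fl mice it was at 4.36, 3.05 and 1.43 CPM after ICH against 3.95, 3.61 and 1.55 CPM in sham (-0.10 ± 0.49, adjusted p = 0.879). The ICH-Fabp4CKO levels thus lay around those of Sham-Fabp4fl_fl.

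The test of the difference itself, an interaction of injury and genotype over all 12 libraries, called 0 members, where 0.0199% of 15089 genes were called. At an unadjusted p under 0.05 there were 3 with a larger response in Fabp4CKO mice and 1, Lama5, with a smaller one, beside 5.57% and 4.37% of all genes, and DESeq2 called 1, Itgax, at an adjusted p of 0.00844, among 266 of all genes. Itgax had the smallest p, with a response 4.84 ± 1.33 larger on the log2 scale in Fabp4CKO mice (adjusted p = 0.304), which was 2.73 without Sham-Fabp4fl_fl mouse 1. Both values rest on a Sham-Fabp4CKO level near the floor, at 4 to 10 reads. Lama3 followed at 0.79 ± 0.31 (adjusted p = 0.428) and Itgb5 at 1.11 ± 0.45 (adjusted p = 0.441), with the values by mouse given above. Without ICH-Fabp4CKO mouse 2, Itgam (1.17, adjusted p = 0.0361) and Itgb5 (1.44, adjusted p = 0.0343) were called, where 371 of 15300 genes were.

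**Figure D5:**
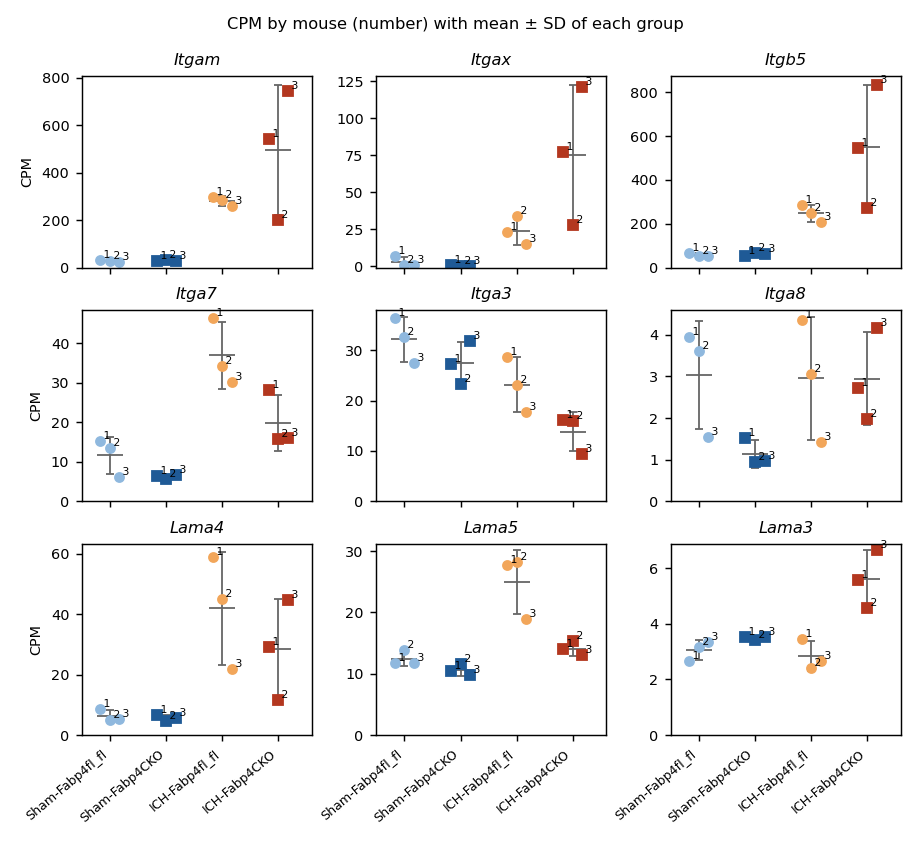
CPM by mouse with the mean and SD of each group of 3 for Itgam, Itgax, Itgb5, Itga7, Itga3, Itga8, Lama4, Lama5 and Lama3. The ICH-Fabp4CKO mice are spread widely in Itgam, Itgax and Itgb5, and narrowly in Lama5, where all 3 lie below the ICH-Fabp4fl_fl mice.

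The calls of ICH against sham in Fabp4CKO mice changed with the mice used. Without Sham-Fabp4CKO mouse 1, 7 members were called in place of 25 (Itgal, Itgam, Itgax, Itgb2, Itgb7, Itgb5 and Lamb2), without mouse 2 or mouse 3 of that group 8, without ICH-Fabp4CKO mouse 1 11, and without ICH-Fabp4CKO mouse 2 29. The calls over all genes moved in the same way, from 5247 to 847, 842, 751, 1583 and 10099 in the same order. Itga2b, Itga3, Itga8, Itgb8, Lama2 and Lama3, called in Fabp4CKO mice alone, were each lost without any 1 of the Sham-Fabp4CKO mice and without ICH-Fabp4CKO mouse 1. Of the 12 other settings run, the Itga2b call held under 4 and the Lama3 call under 3.

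Genes that act with these receptors were counted in 4 lists. Over all genes of Fabp4fl_fl mice, 26.2% were called higher and 19.3% lower after ICH. Of 21 tested adaptors that link integrins to actin, 11 were higher and 3 lower after ICH in Fabp4fl_fl mice, with the largest changes in Fermt3, the kindlin of blood cells (3.74 ± 0.31, adjusted p = 0.000352), Apbb1ip, which brings talin to the membrane (2.92 ± 0.18, adjusted p = 0.000281), and Parvg, a parvin of blood cells (2.79 ± 0.24, adjusted p = 0.000382). Of 11 basement membrane partners, 8 were higher and 0 lower, led by the collagen IV chains Col4a1 (3.68 ± 0.33, adjusted p = 0.000408) and Col4a2 (3.02 ± 0.35, adjusted p = 0.000835) and the nidogen Nid1 (2.47 ± 0.32, adjusted p = 0.00127). The medians of the lists were 0.62 and 0.96.

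Beside 26.2% and 19.3% of all genes, 10 of 15 tested soluble and matrix ligands were higher and 1 lower, with a median of 3.28. They were led by Spp1, or osteopontin, a ligand of Itgav, Itga4 and Itga9 receptors (5.92 ± 1.12, adjusted p = 0.00567), Thbs1 (5.18 ± 0.67, adjusted p = 0.00124) and the matricellular Ccn1 (3.93 ± 0.34, adjusted p = 0.000385). Of 7 tested cell-surface ligands, 5 were higher and 0 lower, with a median of 1.77. The largest changes were in Icam1, the ligand of Itgal and Itgam (3.75 ± 0.30, adjusted p = 0.00035), the endothelial Icam2 (2.24 ± 0.38, adjusted p = 0.00373) and the junction protein F11r (2.18 ± 0.21, adjusted p = 0.000498).

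In Fabp4CKO mice 10 of 21 tested adaptors, 5 of 11 basement membrane partners, 13 of 16 soluble ligands and 4 of 7 cell-surface ligands were higher after ICH. Over all genes, 24.5% were higher and 11.1% lower, and 1 adaptor was lower. Icam2 was not among those called (0.86, adjusted p = 0.0782). Between the genotypes after ICH, 0 genes of the 4 lists were called by edgeR's test, as were 0 of all 14600. At an unadjusted p under 0.05, 0 of 21 adaptors were higher and 2 lower, and 1 and 2 of 11 basement membrane partners. For the 16 soluble ligands these were 3 and 2, and for the 7 cell-surface ligands 0 and 3. Over all genes, 6.36% were higher and 5.82% lower at that level. Icam2 was at 5.11, 3.09 and 4.86 CPM in ICH-Fabp4CKO and at 18.8, 15.4 and 7.65 CPM in ICH-Fabp4fl_fl, without overlap (-1.61 ± 0.38, adjusted p = 0.295).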

How the data were processed

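RNA of tissue beside the hematoma, or of matching sham tissue, of 12 mice was sequenced after poly(A) selection on an Illumina NovaSeq. The deposited table holds estimated counts per gene, of which 7.36 to 8.69% per library were not whole numbers. Per the labels, the tools named by the authors were HISAT2, Bowtie2 2.2.8, StringTie 1.3.1 and DESeq2; their roles, the genome build and the use of strand are not given in the sources used here. Totals of 15650813 to 22406216 counts per library set the precision of low genes. Replicates are separate mice, as far as the labels go.

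The counts were rounded and tested with edgeR 4.0.16 (R 4.3.3, limma 3.58.1): TMM normalization, filterByExpr with a minimum count of 10 and a total of 15, the quasi-likelihood test on the 2 groups compared, and Benjamini-Hochberg adjustment over all genes tested, with calls at an adjusted p under 0.05. The interaction was fitted on all 12 libraries. CPM, counts scaled to a common library total, used TMM factors over all 12 libraries, and log2 CPM with a prior count of 2. Levels per kilobase used exon lengths of GENCODE vM21 (GRCm38). In simulated data, all known changes had a size of 2 on the log2 scale. The same steps called 176 of 199 changed genes for ICH against sham in Fabp4fl_fl mice, 147 of 195 in Fabp4CKO mice, 141 of 195 between the genotypes after ICH, 189 of 195 between the sham groups and 110 of 198 for the interaction. Unchanged genes called were 11, 11, 4, 19 and 5 in the same order. Recovery of smaller changes was not measured, and the members' values between the genotypes after ICH ran from -0.91 to 1.77. Alternatives were DESeq2 1.42.0, other normalization factors, no filter on low genes, a fit blocked by replicate number, 1 fit over all 12 libraries, other call rules and the omission of each library.

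Members and gene lists were chosen with earlier results of these data known. Values of every mouse were given by a rule: the 2 members with the smallest p per role among those called in ICH against sham (Fabp4fl_fl), the 6 with the smallest p between the genotypes after ICH, the 3 for the interaction, the 2 between the sham groups, and every member called in 1 genotype alone. Other members named in the text, Itgb2, Itgal, Itgae and Itga4 among them, were chosen after their values were seen. In each pathway list the 3 called genes with the largest absolute log2 fold change were named. 83 genes without a symbol stayed in the fits.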

Additional observations from a re-analysis of the deposited data

How the results depend on the processing

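For ICH against sham in Fabp4fl_fl mice, 20 members were called, and 17 to 23 under the alternatives run. In Fabp4CKO mice the 25 called members became 17 with the replicate block and 7 to 29 when 1 library was left out. Between the genotypes after ICH, the 0 called members became 8 at an unadjusted p under 0.05 with a fold of at least 1.5, 2 with DESeq2 and 2 with all 12 libraries in 1 fit, and stayed at 0 whichever library was left out. Of all genes, 6.36% were higher and 5.82% lower at that unadjusted p without the fold, DESeq2 called 578 and the fit on all libraries 362. Between the sham groups the 0 became 3 under the unadjusted call and 0 to 7 when 1 library was left out. For the interaction the 0 became 4 under the unadjusted call, 1 with DESeq2 and 0 to 2 when 1 library was left out. The replicate block gave 22, 17, 0, 0 and 0 members in these comparisons, where it called 7262, 3684, 0, 11 and 1 of all genes. The replicate numbers are not said to mark a shared litter or day. Same-numbered mice did not deviate together in every pair (correlations of 0.20, 0.02 and 0.13 in Fabp4fl_fl mice). The log2 fold change of Itga8 after ICH in Fabp4fl_fl mice, -0.10, ran from -0.48 to 0.22 when 1 library was left out. Of the named members' other values, 422 kept their direction and their side of the threshold, 39 lost the call and 20 gained it. The cause of these changes was not tested. With all libraries used, Itgad and Itgb6 did not pass the filter on low counts at this depth.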
